A study of Astyanax mexicanus with 22 samples.

Results

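The insulin-like growth factor binding proteins (IGFBPs) measured here were 10 gene rows among the 27420 of a count table of ovaries of the Mexican tetra, Astyanax mexicanus. A row was taken where its symbol, read without regard to case, was igfbp followed by a number from 1 to 7 and an optional a or b, and where at least 5 of the 22 libraries held a count of it. No row with such a symbol fell short of 5 libraries. The rows were igfbp1a, igfbp1b, igfbp2a, igfbp2b, igfbp3, igfbp5a, igfbp5b, igfbp6b and igfbp7, with the symbol igfbp3 on 2 rows, 1 of them written in capitals as IGFBP3. Together they took up 1257 reads over all libraries. Only igfbp2b, igfbp5b and igfbp7, 3 of the 10, passed the filter on low counts and were tested, with 15607 genes tested in all, and the other 7 are given by their counts.

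IGFBPs are secreted proteins that bind the insulin-like growth factors IGF1 and IGF2 and so hold them away from their receptor, lengthen their life in blood, or carry them to the cell surface, where proteases cut the binding protein and set the ligand free. In vertebrates they are made in liver and in many tissues, and in mammalian ovaries the follicle's own binding proteins and their proteases set how much IGF reaches granulosa and theca cells. Fasting and insulin are known to regulate several of them in liver, IGFBP1 above all. IGFBP7 stands apart in the family, since it binds IGFs only weakly and is best known from the walls of blood vessels and the extracellular matrix.

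Bulk RNA sequencing was run on the right ovaries of surface fish, the river form, and of Pachón fish, a blind form from the Pachón cave that lives with little food. All fish were labelled wild type, and each form had non-treated controls and starved fish in 2 batches named old and new. In the old batch there were 4 control and 2 starved libraries from surface fish and 4 of each from Pachón fish, and in the new batch 2 of each from either form. The ages given for the series are about 500 and 1200 days after fertilization. The labels do not say which batch has which age, nor how long the fish were starved, nor whether each numbered library is a separate fish, so that p-values measure only the spread between these libraries, which may be technical.

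Total gene counts per library ran from 4860620 to 7513790 with a median of 5861974.5. Levels are given below as CPM, counts in every 1000000 after TMM scaling, with no correction for gene length. Levels are therefore compared between groups of fish and not between genes. Oocyte markers (7 of the 11 symbols listed were found) summed to between 2170 and 4630 CPM over the libraries, so the defining cells of the labelled tissue were present in every group. Replicate 2 of the new starved surface fish stood apart from the other libraries on the third principal component, at -92 against -20.3 for the next library, and its TMM factor of 0.833 was the lowest. The main edgeR tests of igfbp2b, igfbp5b and igfbp7 that use starved surface fish are therefore given with and without it. Other values include it unless stated.

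igfbp2b (ENSAMXG00000034029) encodes a member of the IGFBP2 group, which in mammals is one of the more abundant binding proteins in blood and follicular fluid. In surface controls its level was 0.872, 0.761, 3.43 and 1.87 CPM in the old batch and 2.20 and 2.59 CPM in the new batch. In starved surface fish it was 0.144 and 0.158 CPM in the old batch, 1 count in each library, and 1.13 and 1.07 CPM in the new batch. The groups overlapped, because 2 old controls were lower than the starved libraries of the new batch. Within each batch the starved libraries were all below the controls.

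In Pachón controls igfbp2b was at 5.11, 4.33, 3.39 and 6.89 CPM in the old batch and at 4.30 and 5.02 CPM in the new batch. In starved Pachón fish it was at 5.31, 5.58, 6.07 and 7.32 CPM in the old batch and at 1.51 and 1.61 CPM in the new batch. Each starved library of the old batch thus lay above at least 3 of its 4 controls, while both starved libraries of the new batch lay below every Pachón control. The highest igfbp2b levels of the series were in the old Pachón fish and the lowest in the old starved surface fish.

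igfbp5b (ENSAMXG00000039094) encodes an IGFBP5-type protein, a binding protein that attaches to extracellular matrix in mammals. Its level in surface controls was 2.09, 2.44, 6.68 and 3.58 CPM in the old batch and 2.88 and 4.05 CPM in the new batch. Starved surface fish had 0.720 and 0.158 CPM in the old batch and 1.93 and 0.215 CPM in the new batch. The 4 starved libraries were all below the 6 controls, with the closest approach between 1.93 and 2.09 CPM.

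Pachón controls had igfbp5b levels of 2.36, 3.00, 3.03 and 3.91 CPM in the old batch and 1.25 and 4.25 CPM in the new batch. Starved Pachón fish had 4.28, 1.56, 2.19 and 2.75 CPM in the old batch and 0.904 and 1.13 CPM in the new batch. The Pachón groups overlapped in the old batch, and in the new batch both starved libraries were below both controls.

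igfbp7 (ENSAMXG00000032537), the family's weak IGF binder, was at 1.4, 0.761, 2.67 and 2.72 CPM in the surface controls of the old batch and at 4.57 and 5.83 CPM in those of the new batch. Starved surface fish had 0.144 and 0.158 CPM in the old batch, again 1 count each, and 0.161 and 0.859 CPM in the new batch. Only the starved library at 0.859 CPM, the one that stood apart, reached the lowest control, at 0.761 CPM, and within each batch the groups did not overlap. The 2 new surface controls were the highest of all 22 libraries.

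igfbp7 was at 2.75, 2.00, 2.14 and 1.86 CPM in old Pachón controls and at 0.895 and 2.90 CPM in new ones. Starved Pachón fish had 2.91, 0.778, 1.35 and 1.44 CPM in the old batch and 0.904 and 1.13 CPM in the new batch. Starved and control Pachón libraries overlapped in both batches.

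**Figure D1:**
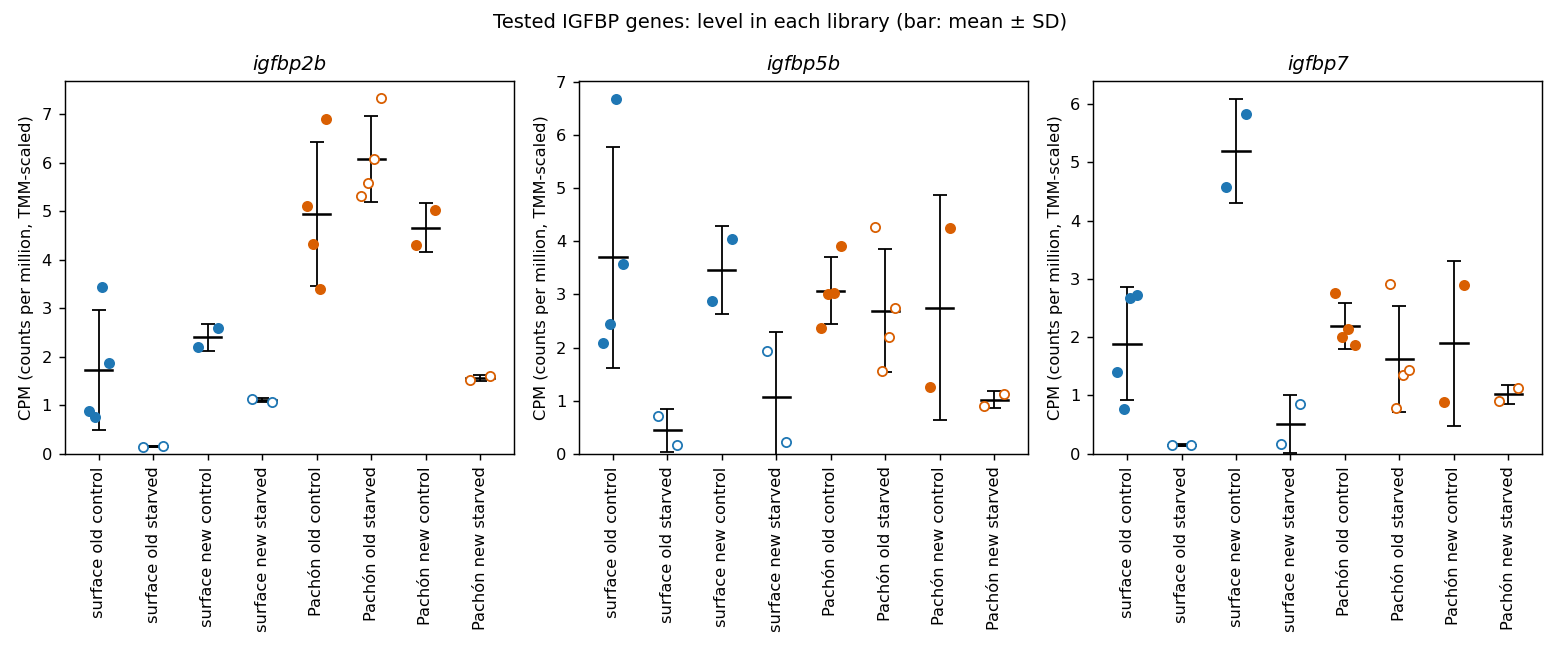
Level of igfbp2b, igfbp5b and igfbp7 in CPM (y axis, linear) in each library, by form, batch and treatment (x axis); blue is surface and orange Pachón, filled points are controls and open points starved fish, and bars are the mean and SD, with lower ends under 0 not drawn. Starved surface fish of the old batch are at 0.720 CPM or less for all 3 genes, and igfbp2b sits between 3.39 and 7.32 CPM in the old Pachón fish whether starved or not.

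Starved surface ovaries had less igfbp2b, igfbp5b and igfbp7 transcript than control ovaries. As the mean over both batches, igfbp7 fell by 3.43 ± 0.59 (log2, SE), igfbp5b by 2.29 ± 0.56 and igfbp2b by 2.22 ± 0.46, with edgeR adjusted p = 0.00308, 0.0184 and 0.00818. These were 3 of 3 tested members lower, where 5.37% of all tested genes were called lower. In either direction 7.79% of all tested genes were called. These were 1216 genes, a count that ran from 420 without the library that stood apart to 4342 without replicate 1 of the same group. The median change of all tested genes was -0.007 log2. All 3 genes also passed the filter on the Pachón libraries taken alone, where 10, 8 and 6 libraries were at or above the filter's level of 1.71 CPM for igfbp2b, igfbp5b and igfbp7. The other 7 rows did not reach the test and cannot be counted as changed or unchanged.

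Both batches shared the direction for every tested member. In the old batch the change was -3.47 ± 0.87 for igfbp7, -3.34 ± 0.71 for igfbp2b and -2.98 ± 0.80 for igfbp5b, with edgeR adjusted p = 0.0919, 0.0619 and 0.110. In the new batch it was -3.39 ± 0.80 for igfbp7, -1.11 ± 0.58 for igfbp2b and -1.60 ± 0.78 for igfbp5b, with edgeR adjusted p = 0.0241, 0.277 and 0.239. Within a batch only igfbp7 in the new batch passed the threshold, where 0.147% of genes were called in the old batch and 4.18% in the new. With all libraries igfbp7 had nearly the same change in both batches, and the value for igfbp2b was larger in the old batch by 2.23 ± 0.94 log2, a difference that did not pass (edgeR adjusted p = 0.42). Without the library that stood apart this difference was 2.27 ± 1.06 log2 in size with the same sign (0.316), and the new-batch values were -1.06 for igfbp2b (0.531), -0.82 for igfbp5b (0.704) and -4.83 for igfbp7 (0.045).

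The old starved surface libraries held few reads of these genes, so the raw counts are given with intervals that cover counting error only. igfbp2b had 39 reads in 4 controls against 2 in 2 starved libraries, a depth-scaled ratio of 11.1 (95% exact interval 2.86 to 94.5). igfbp7 had 43 against 2 reads, a ratio of 12.2 (3.18 to 104). In both cases the lower end of the interval was above 1, and its upper end shows that the size of the fall is poorly fixed in that batch.

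The calls were not shared by all tests. Fitted on the surface libraries alone, the 3 changes were -3.42, -2.30 and -2.23 for igfbp7, igfbp5b and igfbp2b, with edgeR adjusted p = 0.0663, 0.12 and 0.117. With voom sample weights, in limma, none of the 3 was called either, with adjusted p = 0.14, 0.217 and 0.236. Neither of these fits called any gene, at 0 of 14616 and 0 of 15607, so the missing calls are not particular to these 3. All 3 were under an unadjusted p of 0.05 in both fits, as were 2818 and 2210 genes in all. DESeq2 and limma on the authors' scaled values called all 3, where they called 1772 of 15607 and 1287 of 14814 genes.

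In the mean over both batches, leaving out single libraries changed the calls of igfbp5b alone among the 3. Without the library that stood apart, igfbp7 changed by -4.15 (edgeR adjusted p = 0.007), igfbp2b by -2.20 (0.0323) and igfbp5b by -1.90 (0.077), so that igfbp5b was no longer called. The igfbp5b call was also lost without replicate 2 of the old starved surface fish (adjusted p = 0.0871) or replicate 2 of the new surface controls (0.0658), and its change became -3.43 without replicate 1 of the new starved surface fish. The call of igfbp7 within the new batch was lost without replicate 1 of the new starved surface fish (0.056), replicate 1 of the new surface controls (0.0601) or replicate 2 of those controls (0.0961).

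Other libraries changed within-batch calls when left out. The old-batch calls of all 3 members changed without replicate 1 or replicate 2 of the new starved surface fish, while the values hardly moved. Without replicate 2 these were -3.33 for igfbp2b, -2.98 for igfbp5b and -3.47 log2 for igfbp7. With all libraries they were -3.34, -2.98 and -3.47 log2, so those calls are not read here. In the old batch igfbp2b was called without replicate 1 (edgeR adjusted p = 0.0378) or replicate 2 (0.0208) of the old surface controls. igfbp7 was called there without replicate 2 of them (0.043). In the new batch igfbp5b was at -3.89 and called (edgeR adjusted p = 0.029) without replicate 1 of the new starved surface fish.

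Markers of cells around the oocyte fell in the same comparison, where 5.37% of all tested genes were called lower. Counts of calls are over tested markers, while sums of CPM are over all rows found for a list. Those were 13 rows for stroma, 5 for theca and steroid cells and 8 for granulosa. Of 12 tested stroma markers 10 fell and none rose. In the new batch the sum of stroma markers ran from 727 to 758 CPM in surface controls and from 312 to 419 CPM in starved surface fish. In the old batch the sum did not fall, at 368 to 578 CPM in controls and 419 to 493 CPM in starved fish. Such a sum follows the markers with the most reads, so it can differ from the count of markers that fell. Which markers set it was not tested. The stroma marker lum was at 0 in all 4 starved libraries and in the 4 old controls. Of 3 theca and steroid cell markers all 3 fell, from 4.26 to 29.8 CPM in controls to 1.01 to 2.68 CPM in starved fish, with star at 0, and nr5a1a, cyp17a1 and lhcgr changed by -2.33, -3.87 and -4.06 log2. Of 7 smooth muscle markers 5 fell and 1 rose (16.7 to 79.2 CPM against 12 to 22.1), and of 6 granulosa markers 3 fell (7.61 to 31.6 CPM against 5.79 to 15.5).

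Without the library that stood apart fewer of these markers were called lower in starved surface fish. There 7 of 12 stroma markers, 2 of 3 theca and steroid cell markers, 4 of 7 smooth muscle markers and 3 of 7 granulosa markers fell and none rose. The starved sums then ran from 419 to 493 CPM for stroma, 1.01 to 2.68 for theca and steroid cells, 12 to 15.8 for smooth muscle and 5.79 to 9.16 CPM for granulosa markers.

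Among endothelial markers 1 of 6 fell, with sums of 12.1 to 45.0 CPM in surface controls and 17.3 to 41.2 CPM in starved surface fish. Among macrophage markers 1 of 7 fell (11.7 to 72.6 CPM against 9.63 to 64.9, MPEG1 at 0), and none of 5 hepatocyte markers was called (11.5 to 28.8 CPM against 12.4 to 30.3). Of 7 oocyte markers 1 rose and none fell, with sums of 2340 to 2780 CPM in surface controls and 2750 to 4630 CPM in starved fish, or 2750 to 2940 CPM without the library that stood apart. Without it 1 oocyte marker still rose, 1 macrophage marker fell and no endothelial marker was called. In bulk ovary, fewer cells of a type and less RNA per cell cannot be told apart, and the part that these markers have in the IGFBP changes was not tested.

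In Pachón ovaries no tested IGFBP gene was called after starvation, in a comparison where 0.0% of genes were called. igfbp5b changed by -0.81 ± 0.47, igfbp7 by -0.66 ± 0.44 and igfbp2b by -0.63 ± 0.32 as means over both batches, with edgeR adjusted p = 0.712, 0.751 and 0.685. In that comparison 1142 of the 15607 genes were under an unadjusted p of 0.05 in edgeR, none of these 3 among them, and DESeq2 called 9 genes, limma on the scaled values 1 and voom 0. In edgeR on the Pachón libraries alone, and in voom, 1 of the 3 was under that unadjusted level. So were 1672 of 14568 and 1717 of 15607 genes, and neither fit called any gene. No marker list of another cell type had a called gene in this comparison.

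The values of igfbp2b in Pachón fish had opposite signs in the batches. It changed by 0.30 ± 0.35 in the old batch and by -1.57 ± 0.54 in the new batch, neither called (edgeR adjusted p = 1.0 and 0.828). In reads, the old batch had 108 in controls and 166 in starved fish, a depth-scaled control-to-starved ratio of 0.80, and the new batch had 50 and 20, a ratio of 2.98. Old and new values were -0.20 and -1.41 for igfbp5b and -0.45 and -0.88 log2 for igfbp7, none of them called. Within batches 0.00641% of genes were called in the old and 0.0% in the new.

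The difference between the forms in the starvation response was tested directly. The Pachón response was higher than the surface response by 2.76 ± 0.75 log2 for igfbp7, 1.59 ± 0.57 for igfbp2b and 1.49 ± 0.73 for igfbp5b. None passed (edgeR adjusted p = 0.2, 0.362 and 0.553), in a comparison where 0.0256% of genes were called. These were 4 genes, and the count was 798 without replicate 1 of the new starved surface fish, 22 without replicate 2 of the old surface controls, 15 without replicate 2 of the old starved surface fish, 13 without replicate 1 of the new surface controls and 1 without replicate 1 of the new Pachón controls. No member was called in any of the 22 fits that left out 1 library. Without the library that stood apart the 3 differences were 3.50 ± 0.84, 1.58 ± 0.62 and 1.11 ± 0.69 log2 (edgeR adjusted p = 0.152, 0.434 and 0.676). With all libraries igfbp7 and igfbp2b were under an unadjusted p of 0.05. The fall in surface fish is therefore not shown to be absent or smaller in Pachón fish for any of the 3.

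**Figure D2:**
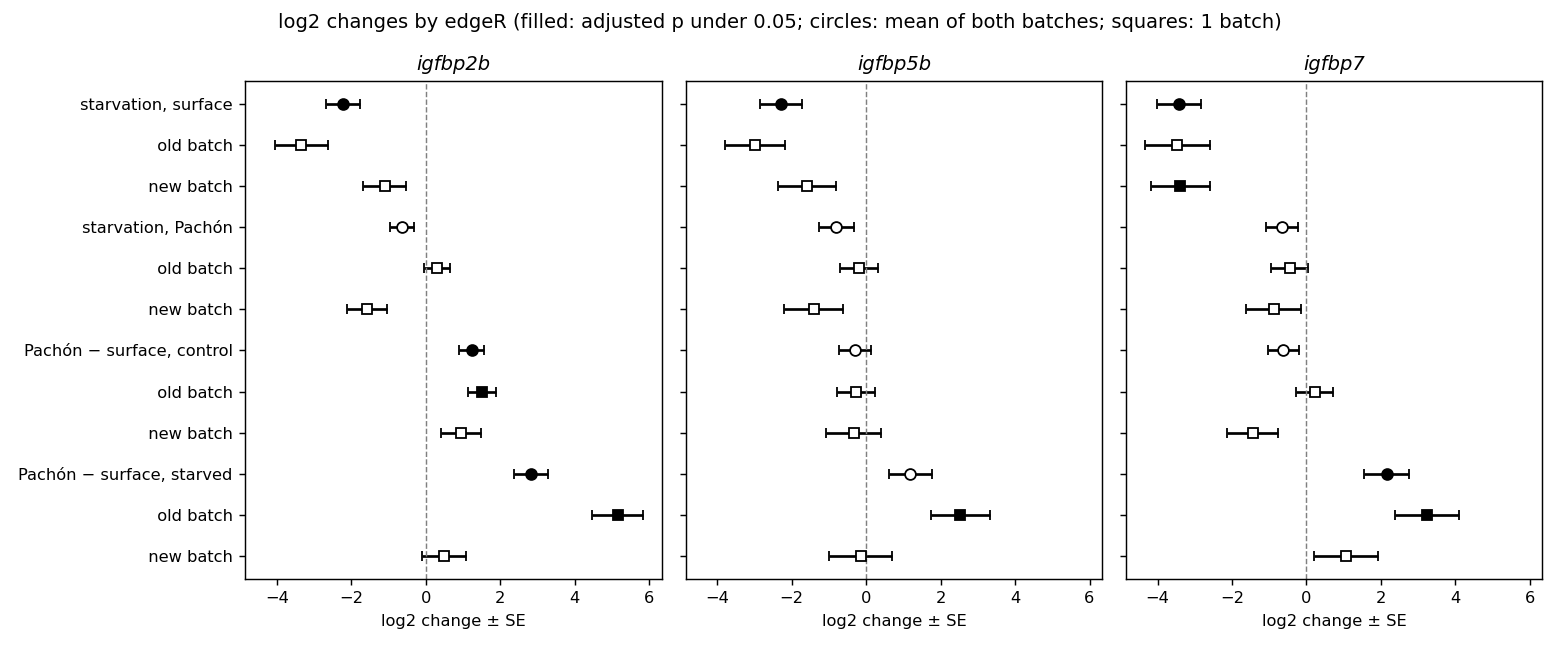
log2 change with its SE from edgeR (x axis) for igfbp2b, igfbp5b and igfbp7 in each comparison (y axis), with circles for the mean of both batches, squares for each batch and filled symbols for an adjusted p under 0.05. All 3 genes lie left of 0 for surface starvation, and igfbp2b lies right of 0 in every comparison of Pachón with surface fish.

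Between control fish of the 2 forms, igfbp2b was the member that passed the test. Its level was 1.96 ± 1.03 CPM (SD, n = 6) in surface controls and 4.84 ± 1.18 CPM (SD, n = 6) in Pachón controls. The groups met only where the highest surface control, at 3.43 CPM, passed the lowest Pachón control, at 3.39 CPM. The fitted difference was 1.23 ± 0.33 log2 higher in Pachón fish (edgeR adjusted p = 0.00661). This was 1 of 3 tested members called, where 34.6% of all tested genes were called and 16.6% were called higher in Pachón fish, so the count is near the background. Within batches the difference was 1.51 ± 0.38 for the old (edgeR adjusted p = 0.00576, 30.4% of genes called) and 0.95 ± 0.53 for the new batch (0.239, 14.9% of genes called).

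igfbp7 and igfbp5b did not pass between control fish, with Pachón minus surface values of -0.62 ± 0.42 and -0.30 ± 0.44 log2 (edgeR adjusted p = 0.273 and 0.643). igfbp7 had opposite values in the batches, at 0.22 ± 0.50 (old) and -1.45 ± 0.68 (new), and the difference of these did not pass either (edgeR adjusted p = 0.404). Markers of the cells around the oocyte were mostly not called between control fish, where 34.6% of all tested genes were called. Of 12 stroma markers 1 was lower in Pachón fish, and of 3 theca and steroid cell markers none was called. Of 6 granulosa markers 1 was lower, of 7 smooth muscle markers 1 was higher and of 6 endothelial markers 2 were lower. Among other cell types, 1 of 5 hepatocyte markers was higher and 2 were lower. Hepatocyte markers summed to 4.06 to 10.3 CPM in Pachón controls and 11.5 to 28.8 CPM in surface controls. Of 7 macrophage markers 1 was lower, and of 7 oocyte markers 1 was lower.

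In starved fish igfbp2b was again higher in Pachón ovaries, at 0.625 ± 0.548 CPM (SD, n = 4) in surface and 4.56 ± 2.43 CPM (SD, n = 6) in Pachón fish. All 6 Pachón values, from 1.51 to 7.32 CPM, lay above all 4 surface values, which ended at 1.13 CPM. The fitted difference was 2.82 ± 0.46 log2 (edgeR adjusted p = 0.000118). igfbp7 was also higher in starved Pachón fish, by 2.15 ± 0.61 log2 (edgeR adjusted p = 0.0107), and igfbp5b had 1.19 ± 0.58 (0.118). These were 2 of 3 tested members called higher, where 36.0% of genes were called and 18.3% were called higher.

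In the old batch all 3 members were called. There igfbp2b was 5.15 ± 0.68 log2 higher in starved Pachón fish (edgeR adjusted p = 3.05e-05), igfbp7 3.24 ± 0.87 higher (0.00976) and igfbp5b 2.53 ± 0.79 higher (0.0236), where 28.4% of genes were called. In reads igfbp2b had 166 in 4 Pachón libraries and 2 in 2 surface libraries, a ratio of 40.6 (95% exact interval 11.1 to 338). In the new batch the 3 values were 0.49 ± 0.60, 1.05 ± 0.86 and -0.15 ± 0.84 for igfbp2b, igfbp7 and igfbp5b, and none was called (edgeR adjusted p = 0.631, 0.442 and 0.931), where 16.7% of genes were.

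Without the starved surface library that stood apart, the mean difference over both batches was 2.82 for igfbp2b and 2.89 for igfbp7, both still called, and 0.82 for igfbp5b (edgeR adjusted p = 0.275). All 3 members stayed called in the old batch without it, and in the new batch igfbp7 had 2.53 ± 1.22 log2 (0.166), igfbp2b 0.48 (0.71) and igfbp5b -0.90 (0.506). Without replicate 1 of that group igfbp5b became 2.33 and was called (edgeR adjusted p = 0.0168). Within the old batch igfbp5b lost its call without replicate 2 of the starved surface fish (0.203) or replicate 1 of the starved Pachón fish (0.052), and igfbp7 without replicate 1 (0.0895) or replicate 2 (0.072) of the starved surface fish. With voom weights igfbp7 was not called in the mean of both batches (0.0954).

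Markers moved here as well, where 36.0% of all tested genes were called and 18.3% were called higher in Pachón fish. In starved fish 7 of 12 stroma markers were higher in Pachón ovaries and 1 was lower, 6 of 7 smooth muscle markers were higher, all 3 theca and steroid cell markers were higher, and 2 of 6 granulosa markers were higher and 1 lower. Stroma markers summed to 305 to 589 CPM (median 340) in starved Pachón fish and to 312 to 493 CPM (median 419) in starved surface fish. The median of their sum was thus lower in Pachón fish, though more markers were called higher than lower. The sum follows the markers with the most reads and is not a measure of stroma content. Theca and steroid cell markers summed to 7.89 to 17.4 CPM in starved Pachón fish, beside the surface values above, and lum was at 0 in Pachón fish of either treatment. Without the library that stood apart 6 of 12 stroma markers were higher and 1 lower, 5 of 7 smooth muscle and all 3 theca and steroid cell markers were higher, and 1 of 7 granulosa markers was higher. With all libraries, 1 of 5 hepatocyte, 1 of 7 macrophage and 1 of 6 endothelial markers were higher in starved Pachón fish. In each of these lists 1 marker was lower, as was 1 of 7 oocyte markers. The part of all these markers in the difference of the IGFBP genes was not tested.

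Batch itself called no member in controls, where 1.24% of genes were called. These were 194 genes, a count that ran from 60 without replicate 2 of the new Pachón controls to 406 without either of the new starved surface libraries. Old minus new was -0.63 ± 0.42 for igfbp7, -0.20 ± 0.32 for igfbp2b and 0.13 ± 0.45 for igfbp5b as means over both forms (edgeR adjusted p = 0.537, 0.844 and 0.939). In surface controls taken alone igfbp7 was at -1.46 ± 0.56 log2 and was not called (edgeR adjusted p = 0.12).

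The share taken by igfbp2b of the reads of the 10 IGFBP rows was read per form. It held 82 of 446 IGFBP reads in surface fish, 18.4% (95% exact interval 14.9 to 22.3), and 344 of 811 in Pachón fish, 42.4% (39.0 to 45.9). These pool both treatments and batches, and the intervals cover counting error only. Shares of single libraries ran from 7.14 to 50.0% in surface fish and from 29.2 to 57.1% in Pachón fish. By library the share ran from 12.8 to 22% in the 6 surface controls and from 29.2 to 57.1% in the 6 Pachón controls, with no overlap. The share needs no scaling between libraries, but it follows from the igfbp2b level above and is not a separate result. In starved surface fish the share was 7.14% in both old libraries, on 14 reads each, and 29.2 and 50.0% in the new ones, so that it overlapped with starved Pachón fish at 31.2 to 51.8%.

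**Figure D3:**
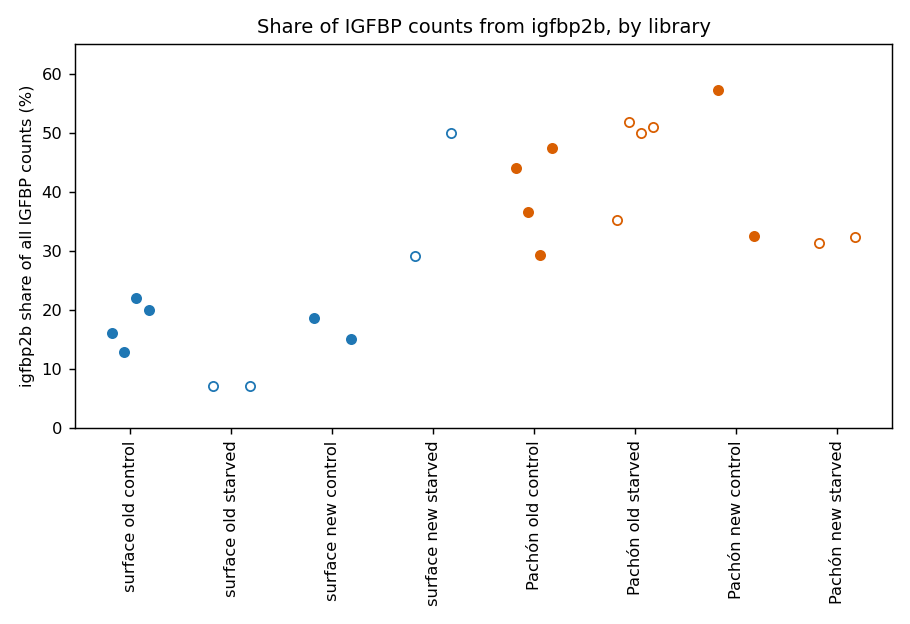
Share of all IGFBP reads that came from igfbp2b, in percent (y axis), in each library by form, batch and treatment (x axis), with blue for surface, orange for Pachón, filled points for controls and open points for starved fish. Surface controls lie between 12.8 and 22% and Pachón controls between 29.2 and 57.1%, and the starved surface libraries, with few reads, scatter from 7.14 to 50.0%.

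Summed over the 10 rows, IGFBP reads came to 10.9 ± 4.94 CPM (SD, n = 6) in surface controls and 2.56 ± 0.873 CPM (SD, n = 4) in starved surface fish, with ranges of 5.41 to 17.3 and 2.02 to 3.86 CPM that did not overlap. The starved sum was 2.7 ± 1.01 CPM (SD, n = 3) with the same range when the library that stood apart was left out. In Pachón fish the sums were 12.1 ± 2.78 CPM (SD, n = 6) and 10.4 ± 4.5 CPM (SD, n = 6). The old starved Pachón libraries summed to 13.1 ± 1.99 CPM (SD, n = 4) and the new ones to 4.91 ± 0.121 CPM (SD, n = 2), against 12.4 ± 1.43 (SD, n = 4) and 11.5 ± 5.61 CPM (SD, n = 2) in their controls.

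Of the 7 rows under the filter, igfbp1a (ENSAMXG00000009512) had the most reads, 103 in 21 of 22 libraries. IGFBP1 is the family member best known for its rise in liver during fasting, in mammals and in fish. Here surface controls had 1, 3, 6 and 3 reads in the old batch and 6 and 20 in the new, and starved surface fish had 1 and 5 in the old batch and 1 and 0 in the new. Pachón controls had 2, 6, 6 and 5 in the old batch and 1 and 2 in the new, and starved Pachón fish had 8, 7, 6 and 11 in the old batch and 1 and 2 in the new. In the old Pachón fish, whose control levels were 0.393, 0.999, 1.07 and 0.931 CPM and whose starved levels were 1.37, 0.908, 1.01 and 1.44 CPM, the groups overlapped once depth was taken into account.

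For igfbp1a the new surface batch had 26 reads in controls against 1 in starved fish, a depth-scaled ratio of 23.4 (95% exact interval 3.84 to 959), and the old batch had 13 against 6, a ratio of 1.23 with an interval of 0.436 to 3.94. With no filter on low counts the mean change in surface fish was -2.25 ± 0.73 log2, which did not pass (edgeR adjusted p = 0.0806). igfbp1a reached the filter's level of 1.71 CPM in 1 library, a new surface control at 3.24 CPM, and entered 9 of the 22 fits that left out 1 library. It entered them through the group where it was high, so their p-values are not read here. In old Pachón fish the control-to-starved ratio was 0.73 on 19 and 32 reads (interval 0.391 to 1.33).

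The igfbp3 symbol sat on 2 rows that may share reads, which was not tested. In mammals IGFBP3 is the main carrier of IGFs in blood, in a complex with the acid-labile subunit. The row written IGFBP3 (ENSAMXG00000030699) had 15 reads in surface controls, 6 in starved surface fish, 23 in Pachón controls and 26 in starved Pachón fish, and the row igfbp3 (ENSAMXG00000036513) had 10, 1, 11 and 11. All 6 surface reads of IGFBP3 in starved fish were in the old batch, 3 in each library, and both new libraries had 0. With no filter the surface changes were -2.05 ± 1.15 and -2.70 ± 1.22 log2, neither called (edgeR adjusted p = 0.357 and 0.229).

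igfbp5a (ENSAMXG00000040974), the other IGFBP5-type gene, had 11 reads in the 6 surface controls, at least 1 in each, and 1 read in the 4 starved surface libraries, a ratio of 7.48 (95% exact interval 1.09 to 322). With no filter its surface change was -2.93 ± 1.12 log2 and was not called (edgeR adjusted p = 0.146). Pachón controls had 8 reads and starved Pachón fish 12, all 12 of them in the old batch, while both new starved libraries had 0. In the new batch, igfbp5a was at 0 in all 4 starved libraries of either form and at 2 or 3 reads in all 4 controls.

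igfbp6b (ENSAMXG00000042326) had 12 reads in 11 libraries, igfbp1b (ENSAMXG00000032346) 10 in 9 libraries and igfbp2a (ENSAMXG00000013431) 9 in 9 libraries, with at most 2 reads in any library. IGFBP6 binds IGF2 more tightly than IGF1 in mammals. At this depth no difference between groups was detectable for these 3 genes.

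**Figure D4:**
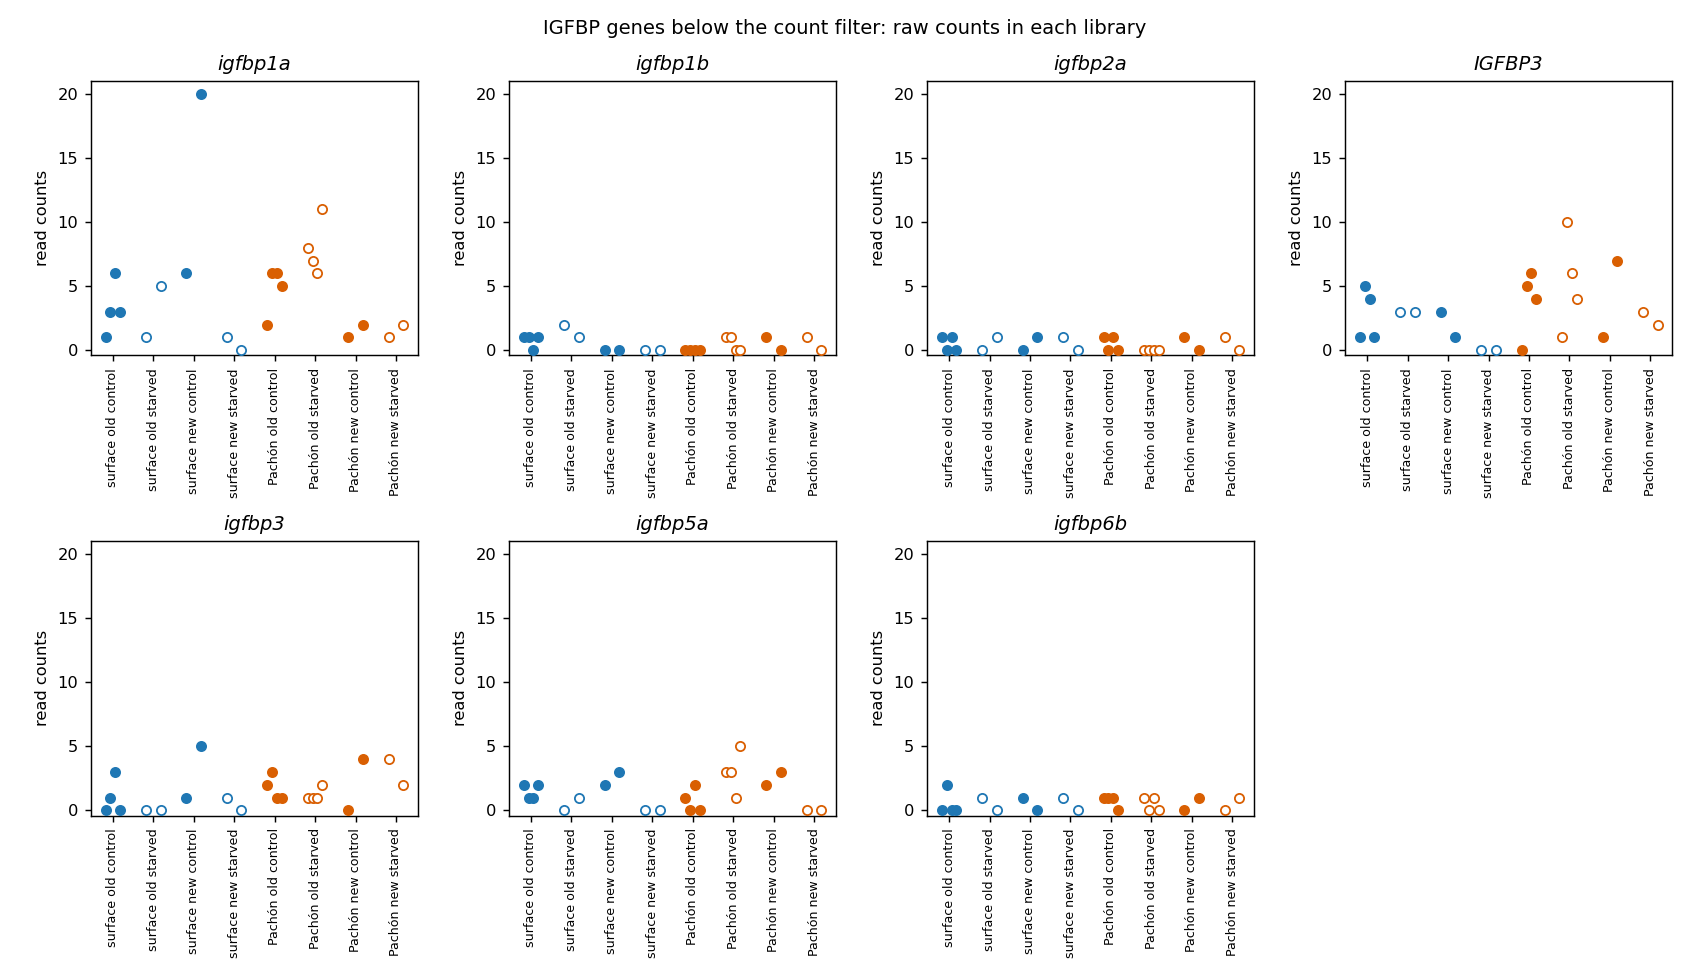
Raw read counts (y axis, linear, the same scale in every panel) of the 7 IGFBP rows under the count filter in each library, by form, batch and treatment (x axis), with blue for surface, orange for Pachón, filled points for controls and open points for starved fish. igfbp1a reaches 20 reads in 1 new surface control, and igfbp1b, igfbp2a and igfbp6b stay at 0 to 2 reads.

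Of the 9 symbols 6 lie in neighbouring pairs. In RefSeq's annotation of the assembly AstMex3_surface, where all 9 symbols were found, igfbp2b is the direct neighbour of igfbp5b and igfbp2a of igfbp5a, with tns1b next to igfbp5b and tns1a next to igfbp5a, and igfbp1a is the neighbour of igfbp3. igfbp1b, igfbp6b and igfbp7 have no IGFBP gene next to them. RefSeq has 10 IGFBP symbols, and the tenth, igfbp6a, is on no row of the count table, so reads of it are in none of the sums here. Which of the 2 igfbp3 rows is RefSeq's igfbp3 was not tested. Coordinates are left out, since the sources used here do not give the build behind the counts. The neighbours igfbp2b and igfbp5b both fell in starved surface fish, while igfbp2b differed between control fish of the 2 forms at 1.23 log2 and igfbp5b had -0.30 log2.

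Over the 22 libraries the log2 CPM of igfbp2b and igfbp5b correlated at r = 0.637, with 0.796 over the 10 surface and 0.669 over the 12 Pachón libraries. igfbp2b and igfbp7 had r = 0.608 (0.850 in surface, 0.346 in Pachón), and igfbp5b and igfbp7 had r = 0.737 (0.703 and 0.848). These are descriptions with no test, and the points share form, batch, treatment and depth.

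Among the genes with a symbol whose pattern was most like that of igfbp2b were KLF15 (r = 0.895), mbnl1 (0.890) and TAF4 (0.890), over the same 22 libraries. Within the 10 surface libraries these had r = 0.858, 0.731 and 0.955, and within the 12 Pachón libraries 0.537, 0.824 and 0.562. KLF15 encodes a transcription factor known from fasting metabolism. The symbol was also on a second row, written klf15, which had 0 reads in new starved Pachón fish. The values here are of the row in capitals. The genes most like igfbp5b were cspg5b (0.891), hipk3a (0.875), CPS1 (0.873), PNPLA6 (0.870) and LPIN1 (0.870). None of these genes was another IGFBP gene.

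The ligands the IGFBPs bind were read in the same table. igf1 had 0 reads in all 22 libraries, of 132579210 reads in all, which allows up to 0.0226 CPM. igf2b (ENSAMXG00000031616) had 45 reads in surface controls and 3 in starved surface fish, a ratio of 10.2 (95% exact interval 3.28 to 51.3), and fell by 4.09 ± 1.02 log2 (edgeR adjusted p = 0.022). igf2b was at -3.98 ± 1.15 log2 and was not called (0.0754) without the library that stood apart. In Pachón fish igf2b had 46 and 43 reads and a change of -0.40 ± 0.66 log2 (0.908).

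igf3, an IGF known from the gonads of fishes, was at 2.61 ± 2.38 CPM (SD, n = 6) in surface controls and 6.73 ± 2.08 CPM (SD, n = 6) in Pachón controls. It was higher in Pachón fish both in controls, by 1.42 ± 0.54 log2 (edgeR adjusted p = 0.0476), and in starved fish, by 2.53 ± 0.65 log2 (0.00513), or 2.51 without the library that stood apart (0.0198). The mean starvation change of igf3 did not pass in either form, at -1.0 ± 0.67 in surface and 0.11 ± 0.51 log2 in Pachón fish. Pooled reads pointed in different directions in the batches, but no fitted batch difference is given here for igf3. The control-to-starved read ratio in surface fish was 0.69 (0.384 to 1.25) in the old and 5.76 (2.94 to 12.6) in the new batch. For Pachón fish it was 0.569 (0.463 to 0.696) and 1.43 (1.02 to 2.0). The intervals cover counting error only and not the spread between libraries. The summed ligand level ran from 0.72 to 3.31 CPM in old starved surface fish and from 7.58 to 21.4 CPM in old starved Pachón fish. Of the 3 ligand genes tested, igf2a included, 1 fell in starved surface fish, where 7.79% of all tested genes were called, with a list median of -2.58 log2. None was called in starved Pachón fish, where 0.0% of all tested genes were, with a median of -0.40 log2.

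In surface starvation 5.37% of all tested genes were called lower. Of 5 IGF and insulin receptor genes 1 fell in starved surface fish, igf1ra, the IGF1 receptor gene, by 0.84 ± 0.19 log2 (edgeR adjusted p = 0.0138), and the list median was -0.20 log2. igf1ra was also higher in Pachón than in surface fish, by 0.76 ± 0.17 log2 in controls and 1.01 ± 0.19 in starved fish (edgeR adjusted p = 0.00192 and 0.000469). Of 6 substrate and adaptor genes 2 fell, IRS2 by 2.02 ± 0.60 and SHC1 by 1.11 ± 0.25 log2 (edgeR adjusted p = 0.0451 and 0.0121), with a list median of -0.20 log2. Without the library that stood apart the receptor and substrate list medians were -0.01 and -0.12 log2. None of these 3 calls in starved surface fish held without the library that stood apart, with igf1ra at -0.76, IRS2 at -2.12 and SHC1 at -0.86 log2 (edgeR adjusted p = 0.0695, 0.13 and 0.0589), while igf1ra stayed higher in starved Pachón fish, by 0.95 log2 (0.00245). irs2a, another insulin receptor substrate gene, had 0.03 ± 0.21 log2 in surface starvation. It had -3.23 ± 0.23 log2 in control Pachón against control surface fish, lower in Pachón (edgeR adjusted p = 5.27e-09). In that comparison 1 of the 6 substrate and adaptor genes was called higher and 3 lower, where 34.6% of all tested genes were called. Between starved fish of the forms irs2a was also called with all libraries. It was lower in starved Pachón fish, at -4.09 log2, without the library that stood apart.

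Enzymes that cut IGFBPs, and their inhibitors, gave 4 tested genes of 11 found. htra1b, a secreted serine protease gene whose mammalian counterpart HTRA1 cuts IGFBP5, had levels of 2.10 ± 1.47 CPM (SD, n = 6) in surface controls and 0.635 ± 0.517 CPM (SD, n = 4) in starved surface fish. It fell by 2.09 ± 0.42 log2 (edgeR adjusted p = 0.00621), and the list median was -1.23 log2. htra1b was at -2.26 ± 0.49 log2 and stayed called (0.0205) without the library that stood apart. pappab, of the pappalysin proteases that cut IGFBP4 and IGFBP5 in mammals, had -1.71 ± 0.54 in surface and 0.73 ± 0.51 log2 in Pachón fish, neither called (edgeR adjusted p = 0.0594 and 0.76).

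Control Pachón fish had less pappab than control surface fish, with a Pachón minus surface value of -1.71 ± 0.50 log2 (edgeR adjusted p = 0.0118). In starved fish the protease gene htra1b and the stanniocalcin gene STC2, whose mammalian product inhibits pappalysin, were higher in Pachón fish by 1.75 ± 0.42 and 1.61 ± 0.61 log2 (edgeR adjusted p = 0.00338 and 0.0469). With the library that stood apart left out, htra1b was higher by 1.95 log2 (0.00561) and STC2 had 1.20 log2 and was not called (0.139). IGFALS, the acid-labile subunit gene, was the only gene found of the ternary complex list and was too low to be tested, with 18 reads in all.

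Other secreted proteins that carry an IGFBP-type domain, among them the CCN matrix proteins, gave 7 tested genes of 13 found. ccn2a and ccn2b, copies of the connective tissue growth factor gene, fell in starved surface fish by 2.79 ± 0.64 and 0.83 ± 0.21 log2 (edgeR adjusted p = 0.0143 and 0.0223), and the list median was -1.57 log2. ccn2a was at -3.05 log2 and called (0.0423) without the library that stood apart, and ccn2b was then at -0.61 log2 and not called (0.112). In starved Pachón fish the list median was -0.01 log2 and none was called, where 0.0% of all tested genes were called, against 7.79% in starved surface fish. ccn2b was higher in Pachón than in surface fish, by 0.79 ± 0.19 in controls and 1.49 ± 0.21 log2 in starved fish (edgeR adjusted p = 0.00289 and 2.62e-05), with 1.29 log2 in starved fish without that library (0.000105), while ccn2a was lower in control Pachón fish, at -1.91 ± 0.54 log2 (edgeR adjusted p = 0.0108). ccn1l2 was also called higher in both comparisons, at 2.85 log2 in controls and 5.51 log2 in starved fish without that library. It had 0 reads in starved surface fish. Of all tested genes 34.6% were called between control forms and 36.0% between starved forms.

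Downstream of the receptors, 1 of 19 tested genes of the PI3K, AKT and mTOR arm was called in starved surface fish, AKT1, higher by 0.30 ± 0.07 log2 (edgeR adjusted p = 0.0173), with a list median of 0.09 log2. Of 13 FOXO and fasting genes 3 fell and 1 rose, with a median of -0.47 log2, or -0.19 log2 without the library that stood apart. In that comparison 7.79% of all tested genes were called. foxo1a fell by 1.48 ± 0.36 and foxo3a rose by 0.54 ± 0.14 log2 (edgeR adjusted p = 0.0181 and 0.0263). KLF15 and fbxo32 were also called lower with all libraries. They were at -2.44 and -0.45 log2 without the library that stood apart. When the library that stood apart was left out, AKT1 was higher by 0.33 log2 (0.0372), 2 of the 13 FOXO and fasting genes fell and none rose, and foxo1a (-1.39 log2, 0.0859) and foxo3a (0.43 log2, 0.133) were not called. In Pachón fish no gene of any of these lists was called, in a comparison where 0.0% of all tested genes were, so this is not a result about the lists.

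**Figure D5:**
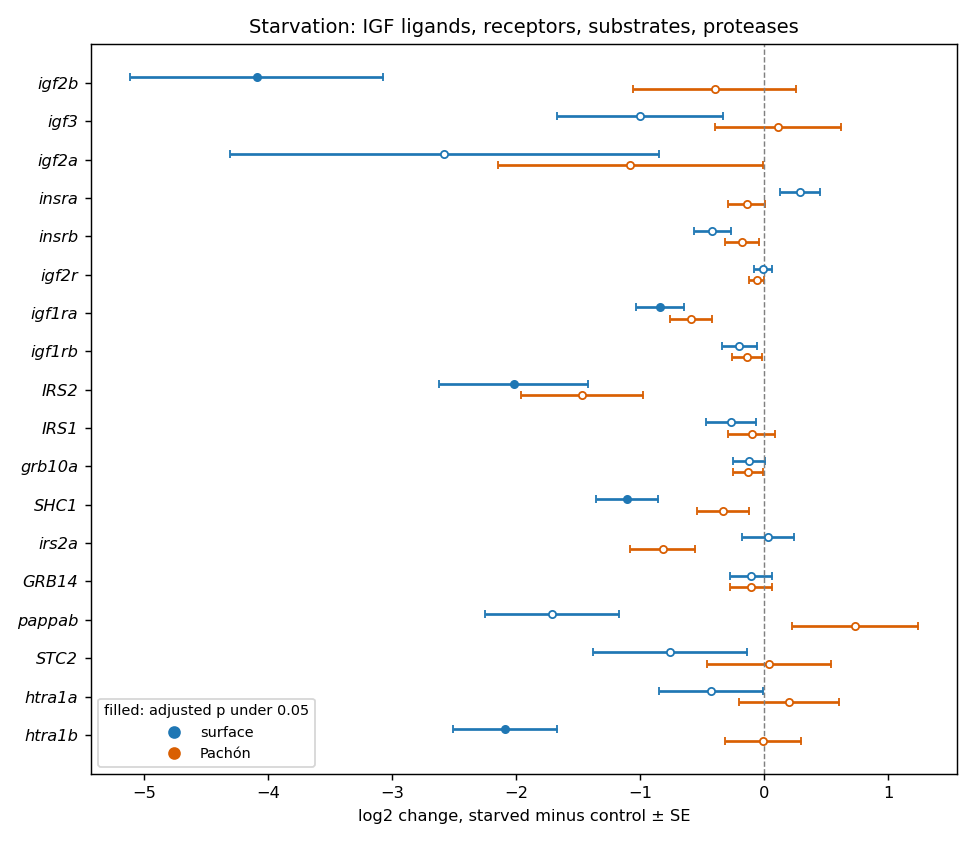
log2 change from control to starved with its SE from edgeR (x axis) for genes of IGF ligands, receptors, substrates and IGFBP proteases (y axis), with blue for surface, orange for Pachón and filled points for an adjusted p under 0.05. igf2b, igf1ra, IRS2, SHC1 and htra1b are the filled points with all 22 libraries, all for surface fish and all left of 0, and of these htra1b alone was also called without the library that stood apart.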

How the data were processed

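Ovaries of surface and Pachón fish were sequenced as rRNA-depleted total RNA with a directional kit, per the labels' protocols. The authors deposited raw read counts per gene for 22 libraries, and a table of scaled CPM for 14814 genes whose values, a signal that is a fixed multiple of each library's deposited counts, summed to 937144 to 1202370 per library. STAR 2.7.10b and RSEM are the tools listed in the submitters' processing notes, with no role stated. For the genome build, annotation and strand setting, the sources used here give nothing. Libraries were grouped by form, batch and treatment from their titles. The 4 rows that name no gene were left out.

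The counts were fitted in edgeR 4.0.16 (R 4.3.3) by its quasi-likelihood test with TMM scaling, filterByExpr by group (minimum count 10, minimum total 15), robust dispersion and 8 group means, all 22 libraries sharing 1 estimate of the spread (common dispersion 0.0501). Comparisons over both batches are means of the within-batch contrasts, p-values were adjusted by Benjamini-Hochberg over 15607 genes with a threshold of 0.05, and the SE is the size of the log2 change over the root of F. The fit was tested on simulated data. Alternatives were size factors by the RLE method, no filter, a replicate block and the compared groups only. Others were the test of DESeq2 1.42.0, voom with sample weights and limma 3.58.1 on log2 of the scaled values plus 1. Each library was also left out in turn.

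The members and all gene lists were chosen with earlier results of these data known. Every member is named, with up to 4 called genes of a pathway list per comparison and the 5 genes of the most similar pattern for igfbp2b and for igfbp5b, the tested member with the next highest level, by Pearson's r of log2 CPM with a prior count of 2. Of the 5 genes for igfbp2b, 2 are not reported here. Exact binomial intervals and the limit of 3 counts at 0 counts cover counting error only.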

Additional observations from a re-analysis of the deposited data

Results flagged for a closer look

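Among 28 groups of 4 old-batch libraries examined for a library far from the others, 3 were picked out, and chance picks out about 1 group in 20. For igfbp1b in old surface controls the library at 0.0 CPM lay far below the other 3, and for igfbp6b in old Pachón controls the library at 0.0 CPM did. For igfbp6b in old surface controls the library at 0.305 CPM lay far above the others. These are differences of 1 or 2 reads.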

How the results depend on the processing

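Of 308 member changes under other settings, 290 kept direction and call, 11 changed call and 7 changed sign. Surface starvation called 0 of 3 members, and 0 genes in all, with the surface libraries alone (2818 genes under an unadjusted p of 0.05 in edgeR) and with voom weights (2210). The Pachón against surface comparison in starved fish called 1 member with the starved libraries alone, where igfbp7 was not tested, and 1 with voom. In these cases the cause was not tested. Counts of called genes moved by over 1.5 times in surface starvation (1216; 493 with the replicate block, 0 as above), in the form difference of the response (4; 107 in DESeq2, 0 of 839 unadjusted in voom), in starved forms (5617; 3527 in voom), in Pachón starvation (0; 9 in DESeq2, 1 in limma) and in old against new controls (194; 11 with the block, 299 in controls alone, 493 in DESeq2, 489 in voom).

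Same-numbered control and starved libraries correlated at 0.113 and -0.113 (old surface), -0.19 (new surface), 0.044, 0.064, -0.175 and -0.066 (old Pachón) and -0.048 (new Pachón). These values gave no sign that the numbers pair them within a form and batch. They cannot exclude it, since the groups are small, and pairing by number across the forms was not tested. With the replicate block igfbp5b in surface starvation was -2.16 (edgeR adjusted p = 0.0652), igfbp5b in old starved forms 2.37 (0.064), and 2 of 3 members stayed called in surface starvation. Crossing the numbers in new starved surface fish, chosen after seeing the data, called 3 members there, and 12 genes in old against new controls.

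The signs that changed were all of uncalled values: igfbp2b old minus new, 0.17 (block) and 0.18 (crossed); igfbp7 old minus new, 0.02 (block); igfbp5b in old controls between forms, 0.01 (voom); and igfbp5b in new starved fish between forms, 0.11 (crossed), 0.17 (voom) and 0.09 (limma). With 1 library left out, 21 of 924 member changes changed call and 9 changed sign. In the means over both batches only igfbp5b among the 3 tested members changed call, in surface starvation and between starved forms. igfbp1a, which entered some of these fits through 1 high surface control, is not counted. Ranges that crossed 0 were, for igfbp5b, -0.85 to 0.02 between control forms (-0.45 to 0.19 old, -1.45 to 0.29 new), -0.19 to 0.68 old minus new and -0.90 to 2.14 between new starved forms, and, for igfbp7, -1.5 to 0.17 in new Pachón starvation and -0.05 to 0.46 between old control forms. Genes called in surface starvation ran from 420, without replicate 2 of the new starved fish, to 4342, without replicate 1. Low counts limit all members: 7 of 10 did not pass the filter.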

Other observations

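igfbp2b after starvation had opposite orders of the batches in the 2 forms, a pattern chosen after its values were seen. In starved Pachón fish the old batch was higher than the new by 1.95 ± 0.49 log2 (edgeR adjusted p = 0.237), and in starved surface fish it was lower, at -2.71 ± 0.80 log2 (edgeR adjusted p = 0.077). In controls the same batch contrast was 0.08 ± 0.44 in Pachón and -0.48 ± 0.47 log2 in surface fish. The difference between the forms in how far the response differed between batches was 4.10 ± 1.14 log2, which did not pass (edgeR adjusted p = 0.405). igfbp5b had 2.60 ± 1.45 and igfbp7 0.51 ± 1.30 log2 in the same contrast (edgeR adjusted p = 0.878 and 1.0). Leaving out the starved surface library that stood apart gave igfbp2b a batch contrast of -2.75 ± 0.94 log2 in starved surface fish (0.128), and the last contrast was 4.13 ± 1.25 for igfbp2b, 3.35 ± 1.36 for igfbp5b and -0.95 ± 1.94 log2 for igfbp7 (edgeR adjusted p = 0.15, 0.29 and 0.876).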
